A study of Mus with 4 samples.

Results

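Stab2 and its paralogue Stab1 were selected on measured values of a TBX3 ChIP-Seq track: the highest summit of the whole track lies inside Stab2, and Stab1 was added as the paralogue. They are 2 of 21887 protein-coding genes on the 21 main chromosomes, where 125 regions were called at the settings used here. TBX3 is a T-box transcription factor that is known mainly as a repressor. Chromatin came from primary mouse hepatocytes, and all 4 samples carried the same construct, pT2-SVNeo-EF1-eGFP-P2A-Tbx3-HA, so that every cell population overexpressed HA-tagged TBX3. The groups were 2 TBX3 ChIP samples from anti-HA precipitation and 2 Input samples of sonicated chromatin that was not precipitated. The HA-tagged TBX3 that was precipitated was therefore driven by the EF1 promoter of a transposon, while the endogenous gene was left in place and its protein carries no tag. No sample without the construct and no IgG control was analysed here, and ages and strains are not given in the labels. Per the methods of the study, such cultures were expanded with EGF, HGF, TNFα and CHIR99021, which activates Wnt signalling, but the medium of the cells used for ChIP is not stated in the labels. The labelled cell type could not be checked against marker genes, because ChIP scores do not measure transcripts.

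Stabilins are large scavenger receptors of the plasma membrane with repeated FAS1 and EGF-like domains and a hyaluronan-binding link domain. In the liver they are known from sinusoidal endothelial cells, where Stab2 clears hyaluronan and other glycosaminoglycans from the blood and Stab1 takes up modified lipoproteins and the matrix protein SPARC. Both also bind phosphatidylserine on dying cells, and hepatocytes are not the cells in which they are usually described. The comparison below sets the TBX3 ChIP signal along Stab2 and Stab1 side by side, and then beside neighbouring genes, the other strong sites and genes of related function.

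The deposited value at each base is the −log10 of a p-value, called the score here. It comes from a Poisson distribution whose mean is an expected level, and it is not adjusted for the number of bases. That level was modelled as the highest of local Input levels and a genome-wide level of 2.43 reads. The track combines ChIP and Input and holds no value per sample, so no replicate error can be attached to any score. A region was called where the score was at least 5 over at least 200 bp, with gaps of up to 30 bp joined. From each score, the whole number of ChIP reads and the matching expected level were worked back along the chromosome. At the lowest expected level of the track, 2.43 reads, 10 reads give a score of 4.31 and 11 reads give 5.01. Coordinates are those of the mm10 build, with genes from the RefSeq annotation of GRCm38.p6, which was used without strand or exons. Positions are therefore given from the lower-coordinate or higher-coordinate end of a gene, and it could not be said which end holds the promoter.

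Stab2 (gene 192188) lies on chromosome 10 from 86841194 to 87008038, a length of 166845 bp. The highest score of the track, 77.01, was at position 86845537, inside Stab2 and 4343 bp above its lower end. This is 2.60% of the way into the gene, with 162501 bp remaining to the higher end. The called region spans chr10:86845332-86845803, a length of 472 bp. At the summit 78 ChIP reads were inferred against 3.34 expected, a ratio of 23.4. The exact Poisson 95% interval of the 78 reads, 61.7 to 97.3, covers their counting error only. With the expected level held fixed, it puts the ratio between 18.5 and 29.1. That level came to 4 Input reads over 150 bp, whose own counting error is not included. Whether the reads were paired is not stated in the sources used here, and the summit would score 39.71 instead of 77.01, with a wider interval, if mates were counted as 1. Because the summit chose the gene, these values are a description and were not tested.

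No other region was called in Stab2 or within 50 kb of it, so that the gene had 1 region. Of all protein-coding genes, 313, or 1.43%, had a called region in the gene or within 50 kb, and 100, or 0.457%, had a region in the gene or within 1 kb. Stab2 was among both groups by the rule that chose it. Stab1 had 0 regions in either window. The highest score inside Stab1 was 4.31, in a run of bases that stayed under the cutoff.

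The Stab2 site rose from a low surrounding. The score was 0.995 at 300 bp above the summit, with 4 reads, and 0 reads were inferred at 400 bp above it. Below the summit the score was 6.42 at 200 bp, with 13 reads, and 14.54 at 150 bp, with 22 reads. It reached 38.45 at 100 bp below and 61.84 at 50 bp below. On the upper side it was 62.62 at 50 bp, 60.89 at 100 bp, 43.16 at 150 bp, 29.47 at 200 bp and 14.54 at 250 bp above the summit. The score therefore stayed high for longer on the higher-coordinate side. The width at 50% of the summit score was 285 bp, of which 99 bp lay below the summit and 185 bp above it.

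The inferred reads formed a broader and smoother top than the score. The largest number of reads was 79, and it lay 44 to 47 bp above the summit, where 5.01 reads were expected and the score was 65.02. The summit of the score and the highest pileup thus differed by 1 read, which is far within counting error, and the expected level decided which base scored highest. Around the summit the expected level stepped from 2.50 to 3.34 reads, then to 4.17 and 5.01, and up to 5.84 between 55 and 65 bp above it, where the score fell to between 52.18 and 57.75 although 72 to 77 reads were inferred. From 122 to 127 bp above the summit the expected level was back at 3.34, and the score rose again to 70.19 with 70 to 73 reads. The dips inside the peak thus fell where the inferred expected level was higher. Reads and expected level were both worked back from the same score, so Input was not seen on its own. Reads stayed at or above 50% of their maximum over 316 bp, from 107 bp below to 208 bp above the summit. Within the called region the number of reads changed 225 times from base to base, in 204 cases, or 90.7%, by 1 read and never by more than 2. The inference itself favours small steps and a smooth top, because it chooses the fewest changes along the chromosome.

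**Figure D1:**
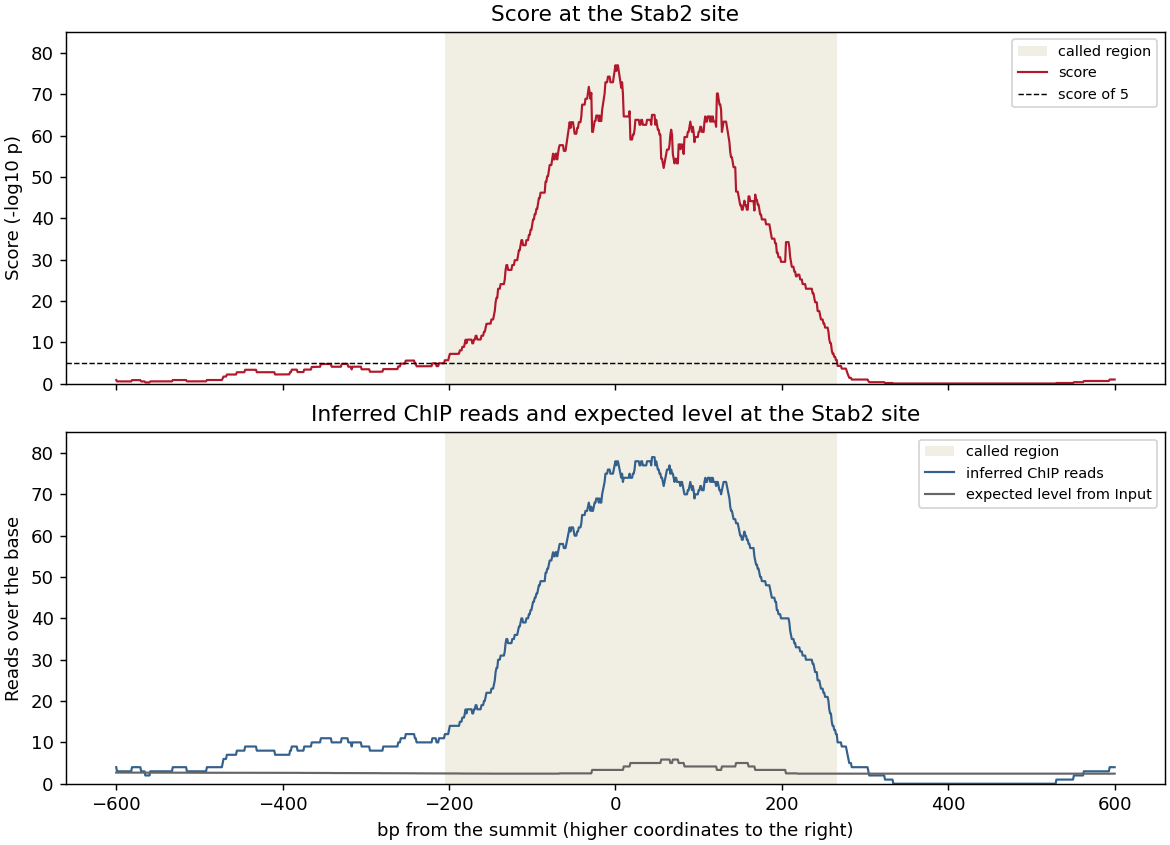
Score (upper panel, −log10 p), inferred ChIP reads and expected level (lower panel, reads over the base) within 600 bp of the Stab2 summit. The called region is shaded and the cutoff of 5 is dashed. The score peaks at 77.01 and dips where the expected level steps up to 5.84, while the reads stay on a broad top of up to 79.

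The flanks of the site differed. Between 500 and 1000 bp from the summit the mean was 4.05 reads on the lower side and 2.86 on the upper side, with no base above 9 reads or a score of 3.32. Closer in, the lower side held a shoulder: a run of 11 bp with a score of 5.59 from 12 reads ended 36 bp before the called region, and at a cutoff of 3 the run reached 389 bp below the summit but 278 bp above it. At that cutoff it was 668 bp long, and at a cutoff of 10 it was 438 bp long, from 86845357 to 86845794. The steep part of the site thus changed little with the cutoff, and most of the added length was the shoulder.

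Away from the site, Stab2 was close to its flanks by the median score per bin, while the number of runs varied. With the called region and 500 bp on each side left out, the highest score in the gene was 5.01, on 2 bp at 86843784 to 86843785, where 11 reads were inferred. The mean over those 165356 bp was 2.59 reads against 3.40 expected, a ratio of 0.763. The whole of chromosome 10 had 2.44 reads against 3.27 expected. The expected level has a floor and the reads have none, so a ratio under 1 does not by itself mean depletion. Of the 166 bins of 1 kb along the gene without that of the site, 21 held a score of at least 3 and 1 a score of at least 5, and the median of the highest score per bin was 1.84. That median was 1.87 in the 50 kb below the gene and 1.87 in the 50 kb above it. Runs at or above a score of 3 numbered 12.8 per 100 kb in the gene and 50 kb around without the site, against 17.9 on the whole of chromosome 10 and 8.58 over all chromosomes.

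Chromosome 10 was read more deeply than the rest: its mean pileup of 2.44 reads was 1.41 times the median of the autosomes. Both this and its mean expected level, 3.27 reads, were the highest of the 21 chromosomes. With the lowest expected level raised to the depth of the chromosome and the ChIP reads left as they were, the Stab2 summit scored 76.01. At the summit 3.34 reads were already expected, above the lowest level of 2.43, so this setting could change little there. The part of chromosome depth in the score was not tested. Chromosome 10 held 13 of the 125 called regions. The nearest ones to Stab2 lay 3.98 Mb below it, in Txnrd1, with a summit of 11.66, and 10.8 Mb above it, with Ccer1 as the nearest gene and a summit of 6.51.

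Apart from the site and its shoulder, the longest run at or above a score of 5 near Stab2 was in the flank above the gene. It spanned 98 bp from 87030413 to 87030510, under the minimum length for a region, and reached a score of 6.51 with 13 reads against 2.43 expected. It lay beyond the higher end of Stab2, 189252 bp above the lower end, inside the long noncoding RNA gene Gm16271 (86972141 to 87031885), which overlaps that end of Stab2. The pseudogene Gm16270, inside Stab2, reached 3.58.

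Stab1 (gene 192187) lies on chromosome 14 from 31139017 to 31168651. It is 29635 bp long, so that Stab2 is 5.63 times as long. The highest score in Stab1 was 4.31, at 31145434, 6417 bp above the lower end, from 10 reads against 2.43 expected. The exact Poisson 95% interval of those 10 reads was 4.80 to 18.4. The run of bases at or above 3 was 94 bp long, and the gene held 2 others, of 2 bp and 5 bp, each with a score of 3.02 from 8 reads. Along its 30 bins of 1 kb, 3 held a score of at least 3 and none reached 5, and the median of the highest score per bin was 0.999.

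The same held for the surroundings of Stab1. The highest score within 50 kb was again 4.31, at 31131414, and runs with a score of at least 3 numbered 7.71 per 100 kb, against 7.08 on the whole of chromosome 14. The mean pileup in the gene was 1.43 reads against 2.72 expected, a ratio of 0.527, and 41.0% of its bases had no read. Chromosome 14 as a whole had 1.59 reads against 2.77 expected. In Stab2 without its site 19.2% of the bases had no read. Chromosome 14 had 0.919 times the autosome median depth and held 1 called region, in Pdhb, 23.0 Mb below Stab1. Both the reads and the expected level were thus lower in Stab1 than in Stab2, and how this bears on finding a site was not tested.

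Against other genes, the highest score of Stab1 was ordinary. As high a score was found in the body of 5858 of 21887 protein-coding genes, which is 26.8% (95% Wilson interval 26.2 to 27.4%), and in 28.5% of the 4635 genes between 1/1.5 and 1.5 times its length. The median over all protein-coding genes was 3.02. By the mean score over the gene body, 0.306, the share as high was 65.0%. Stab2 had a mean score of 0.584 with its site and 0.456 without it. The intervals cover counting error only, and longer genes have more bases in which to reach a given score.

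**Figure D2:**
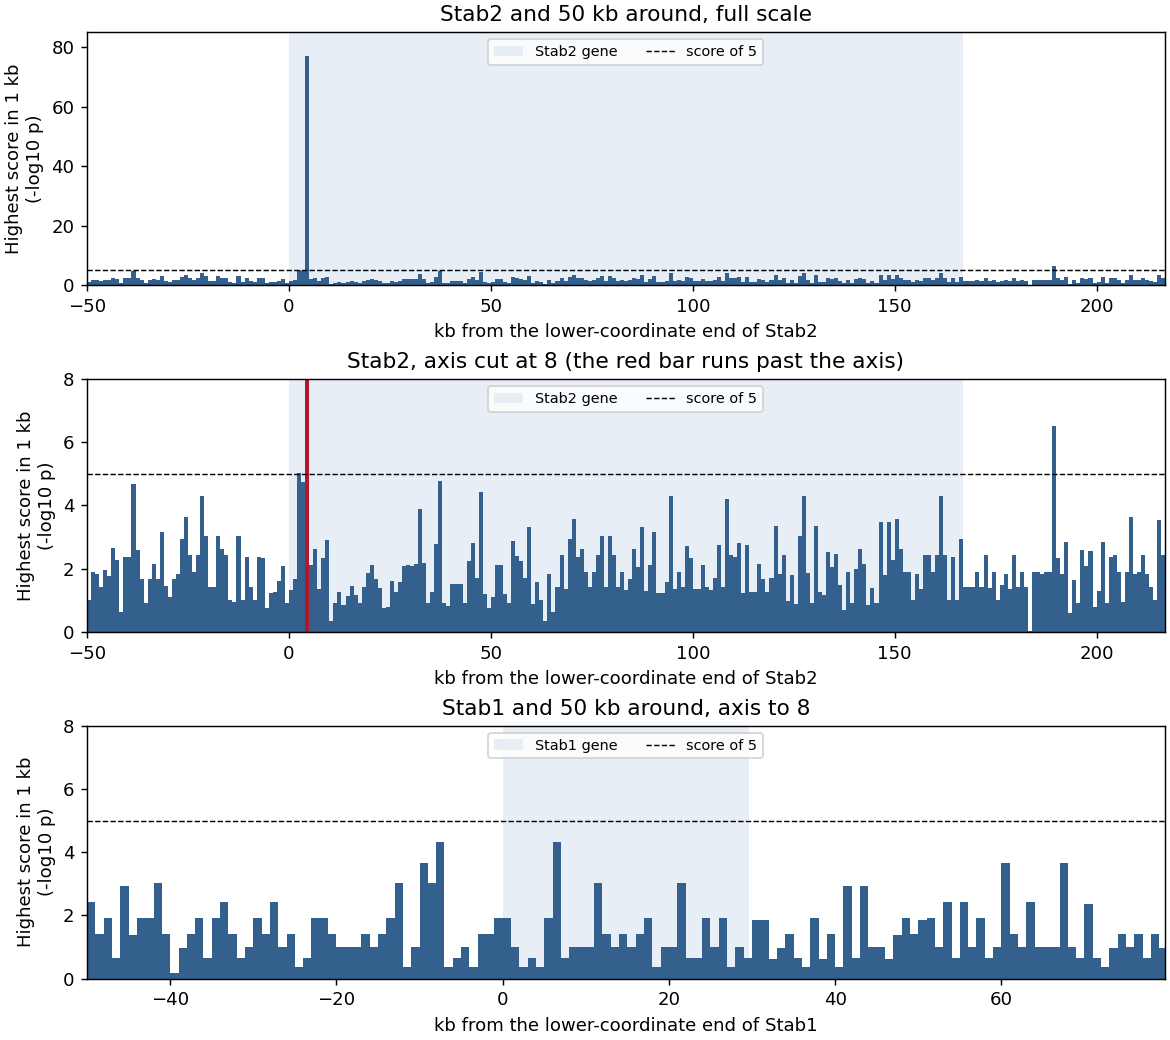
Highest score in each 1-kb bin (−log10 p) along Stab2 (upper panel at full scale, middle panel cut at 8) and Stab1 (lower panel) with 50 kb around each, by distance from the lower-coordinate end, with the gene shaded and the cutoff of 5 dashed. The Stab2 site at 77.01 stands alone, and no bin of Stab1 or its surroundings rises above 4.31.

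Neither gene had a site at its ends. Within 1 kb of its lower end Stab2 had a highest score of 1.31, and within 1 kb of its higher end 2.94. The higher of the pair, 2.94, was equalled or exceeded by 31.4% of protein-coding genes. Stab1 had 1.90 at its lower end and 0.999 at its higher end, and 74.5% of genes scored as high as 1.90. The Stab2 site, at 4343 bp from the nearer end, fell outside these windows.

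Both stabilin genes lie beside a gene of the NT5DC family, which encodes proteins with a 5′-nucleotidase domain. Nt5dc3 ends 2804 bp below Stab2 on chromosome 10, and that end is 7148 bp from the summit. Its body reached 5.61 and its ends 3.64, and no region was called in it. Nt5dc2 overlaps Stab1 by 108 bp on chromosome 14, and its highest score was 4.31, at its lower end. The called site on chromosome 10 lay inside Stab2 and not in Nt5dc3, and none was called at Nt5dc2 or Stab1.

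The other protein-coding genes near Stab1 had low scores in their bodies. Pbrm1, a subunit of the PBAF chromatin remodelling complex, and Smim4, a small integral membrane protein, reached 3.02. Nisch, which encodes the cytosolic protein nischarin, reached 3.65. Tnnc1, the troponin C of slow and cardiac muscle, reached 2.37, and Sema3g, a secreted semaphorin, reached 3.55. The long noncoding RNA gene Gm52148, inside Stab1, reached 0.641. None of them had a called region within 50 kb.

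Beside the other called regions, the Stab2 site was set apart by height and not by length. The next summits were 43.58 near Lrig1, an inhibitor of receptor tyrosine kinase signalling, 37.20 at a site 338073 bp from Myc, a growth-promoting transcription factor, 34.71 in Phldb2, a membrane-associated adaptor of the cell cortex, and 32.27 in Slx4ip, a partner of the SLX4 nuclease scaffold. The Stab2 summit was thus 1.77 times the next one, and the median of the 125 summits was 12.60. By length, 472 bp against a median of 315 bp, it ranked 24 of 125, and the longest region was 3440 bp. By the width at 50% of the summit score, 285 bp against a median of 184 bp, it ranked 19.

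The mean score over the Stab2 region, 43.40, was the highest of the 125, whose median was 8.11. Its summed score, 20483, ranked 2, after the longest region. By reads at the summit it ranked 2 of the 116 summits with an inferred value, after a summit with 124 reads. By the highest pileup anywhere in a region, its 79 reads ranked 15 of 125, with values up to 200 reads, which is the most the inference allowed. The 14 regions ahead of it had expected levels that reached 50.9 to 142.8 reads, against 5.84 in Stab2. The ratio of reads to the expected level, 23.4, was the highest of the same 116 summits, where the median was 7.80 and the next value 19.3 at Lrig1. The Lrig1 value lies inside the counting interval of the Stab2 ratio, 18.5 to 29.1, which leaves out the error of the expected level. The Lrig1 ratio was taken over the genome-wide level of 2.43 reads, and the Stab2 ratio over 3.34 from local Input. These ranks restate the choice of the summit and are given as a description.

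Among the 125 regions, the width of the Stab2 pileup at 50% of its most reads, 316 bp, ranked 55, against a median of 292 bp and a maximum of 708 bp. Its width at 90% of the most reads, 96 bp, ranked 4, against a median of 29 bp. Among the 5 highest summits it was the widest by both. Reads stayed at or above 50% of their maximum over 316 bp in Stab2, 182 bp near Lrig1, 270 bp at the site nearest Myc, 207 bp in Phldb2 and 222 bp in Slx4ip. The widths at 50% of the summit score were 285, 153, 230, 150 and 156 bp in the same order. The called regions were 472, 490, 368, 491 and 504 bp long in that order, so Stab2 was not the longest. Reads stayed at or above 90% of their maximum over 96 bp in Stab2 and over 84, 40, 61 and 49 bp at the others. The Lrig1, Myc, Phldb2 and Slx4ip summits lay on the lowest expected level, the genome-wide 2.43 reads, so local Input did not set their ratios. At the Stab2 summit 3.34 reads were expected, above that level. In Stab2 74.6% of the bases of the region had an expected level above the lowest one, against 58.8, 2.45, 61.1 and 39.5% at the other 4 sites.

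**Figure D3:**
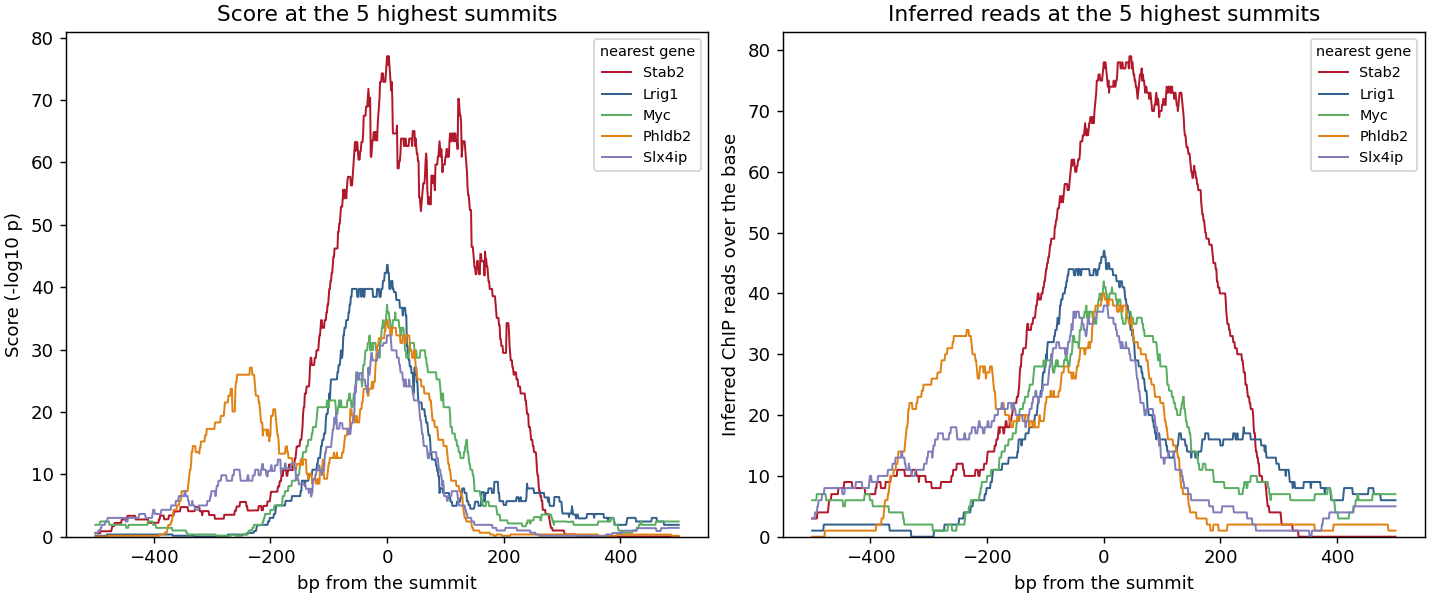
Score (left, −log10 p) and inferred ChIP reads (right, reads over the base) within 500 bp of the 5 highest summits, each named by its nearest protein-coding gene. The Stab2 profile peaks at 77.01 and 79 reads and is the widest of the 5, and the other 4 peak between 32.27 and 43.58.

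**Figure D4:**
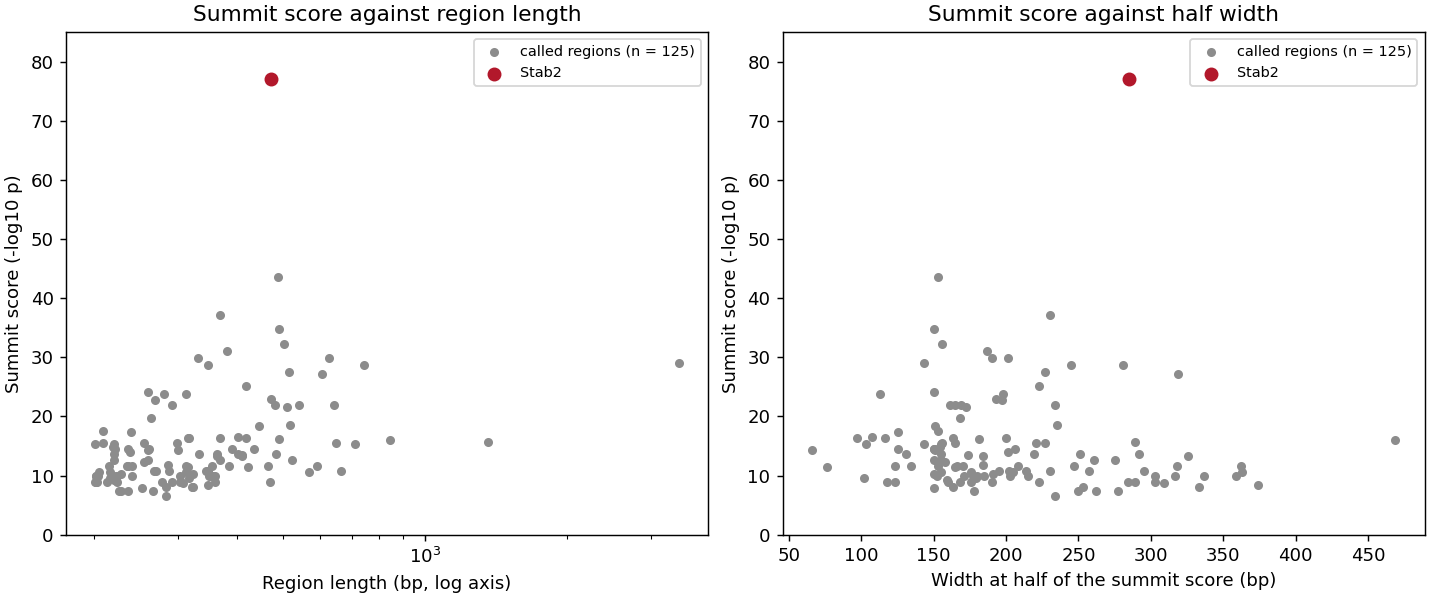
Summit score (−log10 p) of the 125 called regions against region length (left, log axis) and against the width at 50% of the summit score (right), with Stab2 in red. Stab2 lies alone in height at 77.01, with a length of 472 bp and a width of 285 bp inside the range of the others.

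No gene of related function had a called region like that in Stab2. Lists of 6 groups with 105 different genes were examined, with Stab1 and Stab2 left out. Their members had 0 called regions in the gene or within 50 kb, beside the 1.43% of all protein-coding genes. With lists of 13 to 26 genes, that share would give less than 1 gene in each list, so a count of 0 sets them apart from nothing.

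Among 22 scavenger receptors the median of the highest body score was 3.98, against 3.02 over all protein-coding genes. Cd163, the haemoglobin scavenger of macrophages, reached 7.96, Olr1, a receptor for oxidised lipoprotein, 5.75, and Msr1 and Fcgr2b, a class A scavenger receptor and an inhibitory Fc receptor, 5.61 each. Among 22 genes of hyaluronan binding and turnover the median was 3.60. The hyaluronan receptor Cd44 reached 6.51, and the hyaluronidase Cemip and the synthase Has2 5.01 each. In the 13 genes with a link or FAS1 domain, the domains that stabilins hold, the median was 3.02, with Cd44 at 6.51, Hapln1, a link protein of the matrix, at 5.01 and Hapln3 and Vcan at 4.31.

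In the 18 genes of stabilin ligands and partners the median was 3.65. Itgb5, an integrin subunit, had the highest score of the list, 18.11, Gulp1, an engulfment adaptor that binds the Stab2 tail, and Itgav, an integrin alpha subunit, had 5.75 each. Of the 13 genes for clearance of dying cells, with a median of 3.65, the receptor kinase Mertk reached 5.48 and the lipid transporter Abca1 and the engulfment genes Elmo1 and Dock1 5.01 each. Among 26 genes of liver sinusoidal endothelium the median was 3.65, and the endothelial phosphatase Ptprb reached 7.53, the coagulation factor gene F8 6.51 and the VEGF receptor gene Flt1 5.75. A body score of at least 5 was found in 6 of 22, 4 of 22, 2 of 13, 5 of 18, 4 of 13 and 6 of 26 genes of these lists in the order given, and in 13.9% of all protein-coding genes. The genes of the lists were longer, with median lengths between 20234 and 44654 bp against 17169 bp over all protein-coding genes, and the part of length in these counts was not tested.

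The Itgb5 score differed from that in Stab2 in its surroundings. Its run of bases at or above 5 was 69 bp long, against 472 bp in Stab2. At its highest base 29 reads were inferred against 3.34 expected, but within 150 bp the expected level from Input rose to 24.2 reads. At the Stab2 summit 78 reads were inferred against the same 3.34 expected, and the expected level did not pass 5.84 reads anywhere in the region. The highest pileup near the Itgb5 base was not taken, and the cause of the difference was not tested.

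**Figure D5:**
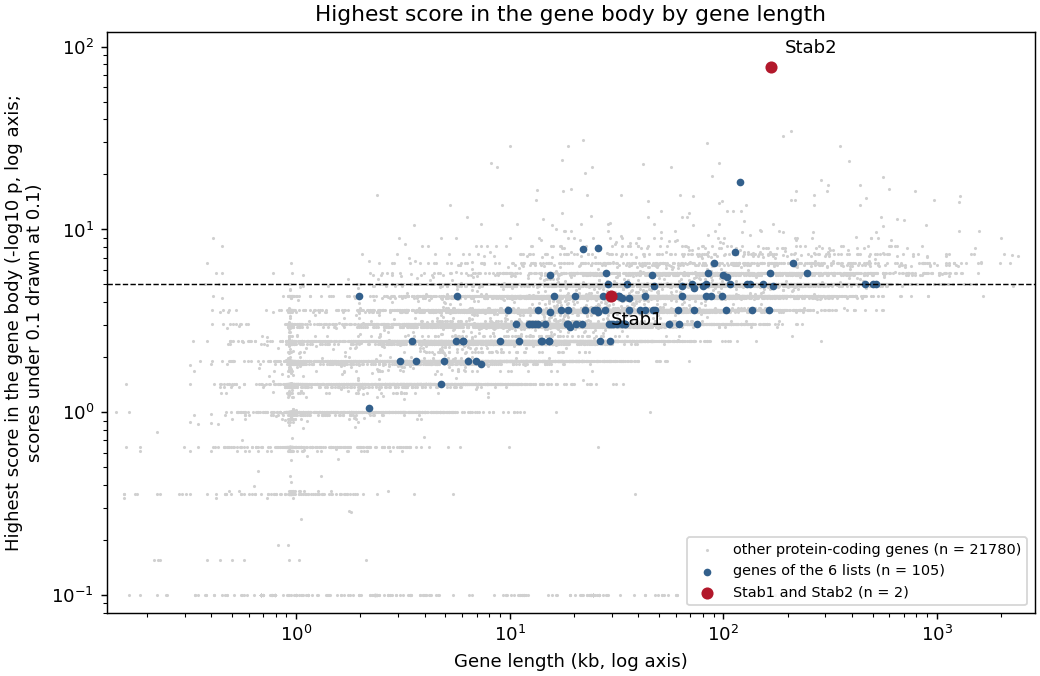
Highest score in the gene body (−log10 p, log axis) against gene length (kb, log axis) for 21887 protein-coding genes, with the 105 genes of the 6 lists in blue, Stab1 and Stab2 in red and the cutoff of 5 dashed. Stab2 lies above all other genes at 77.01, Stab1 lies among the genes of its length at 4.31, and Itgb5 is the blue point at 18.11.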

How the data were processed

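ChIP-Seq of TBX3 was done on 2 TBX3 ChIP and 2 Input samples. Per the labels and the study's methods, the authors mapped the reads to mm10 with Bowtie2, sorted them with SAMtools and used MACS2. The authors deposited a single track of −log10 p-values for the series, in 110667813 intervals, and which libraries entered it is not stated. Versions, the treatment of duplicates, read pairing and how the replicates were combined are not given in the sources used here, and depth per sample is unknown. There were 0 other columns of values per sample.

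Scores were read as deposited, on the 21 main chromosomes only, and the other contigs among the 65 of the track were not searched. Genes came from the RefSeq GRCm38.p6 table, where 1 list gene was matched by an older name (Csh1, now Prl3d1). Reads and expected levels were inferred from the score under a Poisson distribution, choosing the fewest changes along the chromosome. Settings were 150-bp reads, Input windows of 150, 1000 and 10000 bp, and a genome-wide level as the lowest allowed. A pair of values was found for 98.6% of the bases with a score of at least 5, and the inferred total was 30075851 ChIP reads. On 5000000 simulated bases with about the mean depth of the track the right reads were found at 99.9% of bases, and at 97.9% of those with a score of at least 5. Of 20 simulated sites for each size, 20 with 100 added reads, 19 with 40, 0 with 20 and 0 with 2 were called, and no region was called elsewhere. Added reads are the total per simulated site, spread around its centre, and not reads over a base. With a denser or more uneven simulated Input, tried first, the genome-wide level was not recovered, so the inference holds only where that level is common among the scores.

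The genes, the gene lists and the rules were chosen with earlier results of these data known, so no test was made and no p-value was computed. Named genes are the stabilins, protein-coding genes within 50 kb of them, the gene nearest each of the 4 next summits, and the 3 highest members of each list with ties. The value of 1 list member is not reported here. Intervals are exact Poisson for reads and Wilson for shares of genes, both at 95%. Alternatives changed the cutoff, the length, the gap, the flank, the lowest expected level and the count of read pairs. Sequence under the summit, motifs and proteins were not analysed, since no genome sequence was used here. Software was matplotlib 3.10.9 for figures, numba 0.67.0 and scipy 1.17.1 for the inference, and pandas 2.3.3 and numpy 2.4.6 under Python 3.11.15.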

Additional observations from a re-analysis of the deposited data

How the results depend on the processing

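Under all 7 alternatives of cutoff, length, gap, flank, read pairs and depth, Stab2 kept 1 called region in the gene or within 50 kb and Stab1 kept 0. The Stab2 region, 438 bp long even at the cutoff of 10, was too strong for these settings to remove. A run of 98 bp above Stab2 fell just short of the minimum length of 100 bp. For Stab1 only the cutoff of 3 could have changed the count. Its highest score within 50 kb, 4.31, was under the cutoff of the main setting and of the other alternatives. The 125 called regions, over which all ranks were taken, became 773 with the cutoff at 3, 29 with it at 10, 640 at a minimum length of 100 bp and 42 with each read pair counted once. The number of protein-coding genes with a region within 50 kb was 313, and it was 1438 with the cutoff at 3, 63 with it at 10, 1214 at a minimum length of 100 bp, 96 with each read pair counted once and 178 with 20 kb around the gene. The Stab2 region of 472 bp was 668 bp with the cutoff at 3, 438 bp with it at 10, 519 bp when gaps up to 100 bp were joined and 285 bp at 50% of the summit score. The Stab2 summit of 77.01 was 39.71 with each read pair counted once, which divides reads and expected level by 2. It was 76.01 with only the lowest expected level raised to the depth of the chromosome, and 60.77 as the mean over 200 bp. The highest score of Stab1, 4.31, was 2.79 with each read pair counted once and 2.47 as the mean over 200 bp. The share of genes with a body score as high as Stab1, 26.8%, was 65.0% by mean score, 16.5% over all annotated genes and 28.5% among genes of similar length. The share with an end score as high as Stab1, 74.5%, was 64.6% by mean score, 70.9% over all annotated genes and 90.0% with windows of 2 kb, and for Stab2 31.4% became 62.8, 28.2 and 48.9%. Apart from what each setting does by construction, the cause of these moves was not tested. Leaving out a replicate was not run, and no paired analysis was possible because the track holds no value per sample. Motif alternatives were not run. Without replicates, how far the Stab2 summit varies between cultures is unknown.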
